A study of Homo sapiens with 6 samples.

Results

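The peaks described here are the β-catenin ChIP-seq peaks that lie upstream of a gene, between 1 and 50 kb from its transcription start site (TSS). They were taken from the 3 deposited peak lists by the authors' own annotation, as the peaks marked upstream whose distance to the TSS was above 1 kb and at most 50 kb. Of 3126 peaks in all, 488 met this rule: 281 of 1813 in CHIR+SB, 184 of 1053 in CHIR and 23 of 260 in RPMI. The cells were SA121, a human embryonic stem cell line that was grown in DEF-CS medium and then kept for 6 h in RPMI-1640 medium in every group. The CHIR+SB cells received CHIR99021 together with SB431542, the CHIR cells received CHIR99021 alone, and the RPMI cells were the mock-treated control. CHIR99021 blocks the kinase GSK3 and so stabilises β-catenin. SB431542 blocks the receptor kinases through which Nodal, activin and TGFβ signal. No dose is printed, since its unit in the labels is in doubt. Each condition had 1 library with a goat antibody to β-catenin and 1 with goat IgG, 6 libraries in all, each made from the pooled DNA of 3 parallel ChIPs. There is therefore no spread between replicates, no p-value is given, and every interval is a 95% interval for counting error only.

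β-catenin carries the Wnt signal into the nucleus, where it binds DNA through the TCF/LEF transcription factors rather than by itself. Much of this binding is known to occur at enhancers, which lie away from the promoters of the genes they act on. In embryonic stem cells, Wnt and Nodal signalling together induce the primitive streak, the source of mesoderm and endoderm, whose genes include EVX1, MIXL1 and EOMES. The question put to these libraries is which sites β-catenin occupies once the Wnt pathway is switched on, with or without a block of activin and Nodal receptors.

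Upstream peaks were assigned to microRNA (miRNA) genes as well as to protein-coding genes, and the miRNAs found in both CHIR+SB and CHIR can be read directly as sequence. The list names matched 24 miRNA genes with an upstream peak, and 21 of them had a mature sequence among the RefSeq (GRCh38.p14) entries used. Part of the RefSeq entries was left out before this count, so 21 is a lower limit. Of the 7 that had an upstream peak in both CHIR+SB and CHIR, the 5 best known with an entry are shown 5′ to 3′, with the seed (bases 2 to 8, the part that pairs with target mRNAs) in capitals.
hsa-miR-302b-3p: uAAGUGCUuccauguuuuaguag
hsa-miR-512-3p: aAGUGCUGucauagcugagguc
hsa-miR-183-5p: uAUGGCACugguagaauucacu
hsa-miR-181c-5p: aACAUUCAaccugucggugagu
hsa-miR-219a-5p: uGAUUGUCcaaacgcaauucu
The other members of the 7 were MIR5584 and MIR153-2. In the sequences used, no complete seed was shared between different genes, but the letters AGUGC stood in the seeds of 3 genes. These were MIR302B, MIR512-2 and MIR106A. How often these letters stand in the seeds of all RefSeq miRNAs was not counted, so the 3 genes are a description only. These miRNAs were chosen for display with their peaks known.

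MIR302B, from the miR-302 cluster that is abundant in human embryonic stem cells, had an upstream peak of 25 reads in CHIR+SB at 3.78 kb and of 26 reads in CHIR at 3.87 kb. MIR512-2, from the large primate-specific miRNA cluster of chromosome 19, had 26 reads in CHIR+SB and 29 in CHIR, at 5.35 and 5.42 kb. The highest of these peaks was upstream of MIR183, of a cluster known from sensory cells, with 41 reads in CHIR+SB and 48 in CHIR, both 12.0 kb away. MIR183 also had a CHIR+SB peak of 20 reads at 1.55 kb that overlapped no CHIR peak. MIR181C had 25 reads in CHIR+SB and 26 in CHIR, at 1.55 kb. MIR219A2, known in mouse for a role in oligodendrocytes, had peaks of 19 and 15 reads in CHIR+SB that both overlapped a single CHIR peak of 42 reads. Of the 7, MIR153-2 alone had a peak in all 3 lists, with 16 reads in CHIR+SB, 41 in CHIR and 27 in RPMI. MIR106A had an upstream peak in CHIR only, with 20 reads, the lowest count in that list. In all, 8.19% of upstream peaks in CHIR+SB (23 peaks), 7.61% in CHIR (14 peaks) and 4.35% in RPMI (1 peak) were assigned to a miRNA gene, against 3.66%, 3.57% and 1.69% of the other peaks of the same lists. Among those other peaks, the ones far upstream, beyond 50 kb, had shares of 5.98% in CHIR+SB, 8.91% in CHIR and 5.56% in RPMI. Those downstream of genes had 7.13%, 6.75% and 5.26%. The higher share was thus not particular to the upstream peaks. These shares were not tested.

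The strongest upstream binding with CHIR, alone or with SB, included genes of the primitive streak and of Wnt feedback, and none of these had an upstream peak in RPMI. The highest upstream peak of the CHIR+SB list lay 2.56 kb from EVX1, a homeobox gene of the primitive streak (chromosome 7, 27278976 to 27280226 in hg19, as the list gives it), with 94 reads against 27 IgG reads. In CHIR the same stretch held 2 peaks, of 98 reads at 2.85 kb and of 65 reads at 2.06 kb. The authors' normalized signal (reads times 1 factor per library) was 52.9 in the CHIR+SB peak, which is 1250 bp wide, and 37.6 and 24.96 in the CHIR peaks, which are 724 and 639 bp wide. Since the boundaries were drawn separately in each list, no ratio is given for this stretch. The RPMI list holds no peak there. A list gives counts only for peaks that were called, so the reads of a library at a site without a peak are not known.

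MIXL1, a homeobox gene of the streak, had 1 upstream peak 12.9 kb away, with 60 reads in CHIR+SB and 75 in CHIR, which is a signal of 33.8 and 28.8 (ratio 1.17, 0.820 to 1.67). EOMES, a T-box factor needed for definitive endoderm in mouse, had 54 reads in CHIR+SB at 6.36 kb and 78 in CHIR at 6.31 kb, a signal of 30.4 and 30.0 (ratio 1.01, 0.703 to 1.45). Upstream of EOMES, CHIR had a further peak of 31 reads at 9.20 kb that no CHIR+SB peak overlapped. EVX1, MIXL1 and EOMES were the members of the 32 streak genes listed that had an upstream peak, and they were the same in CHIR+SB and CHIR.

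The gene lists held 347 genes in 13 groups, and were chosen with earlier results of these data known, so the counts describe them and support nothing. An upstream peak was assigned to 31 of them in CHIR+SB, 33 in CHIR and 1 in RPMI. Of the 20056 genes that RefSeq counts as protein-coding the share with an upstream peak was 1.08% in CHIR+SB, 0.693% in CHIR and 0.105% in RPMI, and over the lists 8.93%, 9.51% and 0.288%. Among the upstream peaks, those of listed genes had a median of 21 reads in CHIR+SB (37 peaks) and 34.5 in CHIR (42 peaks), and those of all other genes 17 in CHIR+SB (244 peaks) and 28.5 in CHIR (142 peaks). The plot of the highest upstream peak per gene shows these genes by list.

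**Figure D1:**
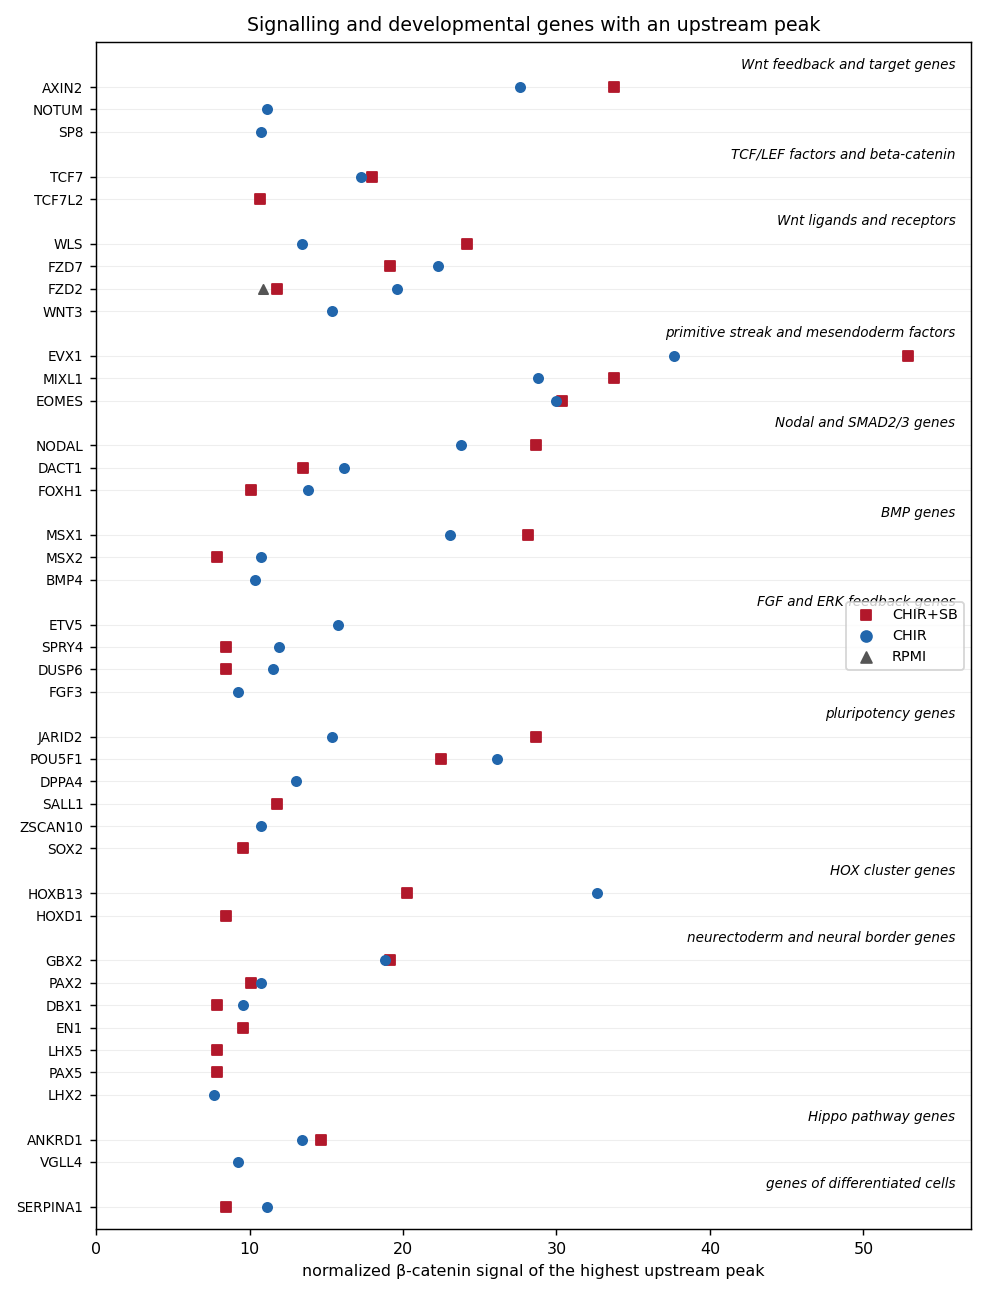
Normalized β-catenin signal (horizontal axis, reads times the authors' factor, no unit) of the highest upstream peak of each listed gene in CHIR+SB (squares), CHIR (circles) and RPMI (triangle), grouped by list. EVX1 has the highest CHIR+SB point, at 52.9, where 1 CHIR+SB peak spans 2 CHIR peaks, and FZD2 has the only RPMI point, at 10.9.

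Of the 26 genes of Wnt feedback, AXIN2 alone had upstream peaks in CHIR+SB. AXIN2 encodes a scaffold of the β-catenin destruction complex and is induced by Wnt as a brake on it. Its upstream peaks stood at 2 distances, about 32 and 11 kb. The farther one (chromosome 17, 63589359 to 63590140 in CHIR+SB and 63589622 to 63590221 in CHIR) had 60 reads in CHIR+SB and 72 in CHIR, a signal of 33.8 and 27.6. The nearer had 34 reads in CHIR+SB and 32 in CHIR, a signal of 19.1 and 12.3 (ratio 1.56, 0.932 to 2.61). AXIN2 also had peaks within 1 kb of its TSS, where 1 CHIR+SB peak of 81 reads stood beside 3 CHIR peaks of 61, 67 and 32 reads. NOTUM, a secreted enzyme that inactivates Wnt proteins, and SP8, a zinc-finger factor of the SP family, had an upstream peak in CHIR only, of 29 and 28 reads. SP8 also had a CHIR+SB peak of 28 reads downstream of the gene.

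Among 15 genes of the TCF/LEF factors and their partners, TCF7 had an upstream peak 43.4 kb away in both lists, with 32 reads in CHIR+SB and 45 in CHIR. TCF7L2 had 19 reads in CHIR+SB at 34.5 kb and no overlapping CHIR peak. Of 40 genes for Wnt ligands, their secretion and receptors, WLS, FZD7 and FZD2 had upstream peaks in CHIR+SB and in CHIR, and WNT3 in CHIR only. WLS, which escorts Wnt proteins out of the cell, had 43 reads in CHIR+SB and 35 in CHIR at 44.1 kb. Its signal was 24.2 in CHIR+SB and 13.4 in CHIR, a ratio of 1.80 (1.13 to 2.90). The WNT3 peak of 40 reads, 3.13 kb from the TSS, was the second highest of the CHIR upstream peaks that overlapped none of the other lists. Within the gene, WNT3 had a peak in both lists, of 27 reads in CHIR+SB and 45 in CHIR. WNT3 encodes the Wnt ligand needed in mouse for the primitive streak to form.

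The receptor genes FZD7 and FZD2 had several upstream peaks each. FZD7 had 3 in CHIR+SB, of 34, 29 and 20 reads, and 4 in CHIR, of 58, 34, 33 and 27 reads, in clusters near 11 and 38 to 39 kb. The peaks of both lists met at all 3 FZD7 sites, and where 1 peak met 1 peak the ratio was 0.732 near 38 kb and 1.09 near 39 kb, with intervals that include 1. FZD2 had 4 in CHIR+SB, of 21, 20, 20 and 14 reads, 2 in CHIR, of 51 and 45 reads, and 1 in RPMI, of 17 reads. The RPMI peak of FZD2, 16.9 kb away, was the 1 upstream peak at a listed gene in RPMI. At that site the signal was 11.8 in CHIR+SB, 19.6 in CHIR and 10.9 in RPMI. CHIR exceeded RPMI there by 1.80 times (1.02 to 3.32), and CHIR+SB by 1.08 times (0.545 to 2.19).

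Of the 27 genes listed under Nodal and SMAD2/3 signalling, NODAL, DACT1 and FOXH1 had upstream peaks, in CHIR+SB and in CHIR. NODAL, the ligand whose receptors SB431542 blocks, had 51 reads in CHIR+SB with 12 IgG reads, and 62 reads in CHIR with 1 IgG read, 13.9 and 13.8 kb away. Its signal was 28.7 in CHIR+SB and 23.8 in CHIR (ratio 1.21, 0.815 to 1.77). FOXH1, a DNA-binding partner of SMAD2/3, had 18 reads in CHIR+SB and 36 in CHIR. DACT1, a regulator of dishevelled kept in this list, had 24 reads in CHIR+SB and 42 in CHIR at 8.38 and 8.43 kb. It also had a CHIR peak of 25 reads at 2.17 kb with no CHIR+SB partner. The interval of the ratio of CHIR+SB to CHIR included 1 at these 3 genes.

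Of 20 BMP genes, MSX1 and MSX2, homeobox targets of BMP signalling, had upstream peaks in CHIR+SB and CHIR. MSX1 had 50 reads in CHIR+SB and 60 in CHIR at 2.73 and 2.74 kb. The MSX2 peaks, of 14 reads in CHIR+SB and 28 in CHIR, were at different sites, 31.2 and 3.36 kb away. BMP4, a ligand, had 27 reads in CHIR only. Of 26 genes of FGF signalling and its ERK feedback, the ERK phosphatase DUSP6 had 15 reads in CHIR+SB and 30 in CHIR, and the feedback inhibitor SPRY4 15 and 31. FGF3, a ligand, had 24 reads in CHIR, and ETV5, an ETS factor induced by FGF, had 41. The CHIR+SB peak that overlapped the one at ETV5 had 15 reads and its centre 976 bp from the TSS, just outside the rule.

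Of 25 pluripotency genes, POU5F1 and JARID2 had upstream peaks in CHIR+SB and CHIR. POU5F1, which encodes OCT4, had 40 reads in CHIR+SB and 68 in CHIR at 1.41 and 1.40 kb, a signal of 22.5 and 26.1 (ratio 0.862, 0.568 to 1.29). JARID2, a subunit of the Polycomb complex PRC2, had 51 reads in CHIR+SB and 40 in CHIR at 37.3 and 37.4 kb, and its signal was 1.87 times as high in CHIR+SB as in CHIR (1.21 to 2.90). SOX2, with 17 reads, and SALL1, with 21, had an upstream peak in CHIR+SB only. DPPA4, with 34 reads, and ZSCAN10, with 28, had one in CHIR only. Of 40 HOX genes, HOXB13, the last gene of its cluster, had 36 reads in CHIR+SB and 85 in CHIR at 4.37 and 4.36 kb. Its signal was 20.3 in CHIR+SB and 32.6 in CHIR, a ratio of 0.620 (0.408 to 0.926). HOXD1 had an upstream peak in CHIR+SB only, of 15 reads. Downstream of the gene it had peaks in both lists, of 27 and 14 reads in CHIR+SB and 33 and 29 in CHIR.

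Of 30 genes of neurectoderm and neural border, 7 had an upstream peak in CHIR+SB and 4 in CHIR, and 3 of these were the same genes. GBX2, a homeobox gene of the anterior hindbrain, had the highest, with 34 reads in CHIR+SB and 49 in CHIR at 5.47 and 5.43 kb. PAX2 had 18 reads in CHIR+SB, and 28 and 20 in CHIR. DBX1 had 14 reads in CHIR+SB and 25 in CHIR. EN1, LHX5 and PAX5 had 14 to 17 reads in CHIR+SB, a signal of 7.88 to 9.56, and no upstream peak in CHIR. The lowest signal of any CHIR peak was 7.68, so these peaks were not below the range of the CHIR list. LHX5 also had peaks beyond 50 kb upstream, of 18 reads in CHIR+SB and 29 in CHIR. LHX2 had 20 reads in CHIR only. Of 16 Hippo genes, the YAP target ANKRD1 had 26 reads in CHIR+SB and 35 in CHIR, and VGLL4, a cofactor of TEAD factors, 24 in CHIR. Among the genes used for contrast, SERPINA1, of 30 genes of differentiated cells, had 15 reads in CHIR+SB and 29 in CHIR, and 0 of 24 housekeeping genes had an upstream peak in any list.

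As a whole, the upstream peaks made up 15.5% of the CHIR+SB list (13.9 to 17.2%), 17.5% of the CHIR list (15.2 to 19.9%) and 8.85% of the RPMI list (5.69 to 13.0%). They held 6171 reads in CHIR+SB, 6550 in CHIR and 503 in RPMI, over 90.7, 68.8 and 6.25 kb. Within them lay 1979 IgG reads in CHIR+SB, 695 in CHIR and 115 in RPMI. Set to RPMI as 1, the authors' factors imply a β-catenin depth of 1.14 in CHIR+SB and 1.67 in CHIR, and an IgG depth of 1.75 and 0.976. The lowest count of an upstream peak was 13 reads in CHIR+SB, 20 in CHIR and 15 in RPMI, and the highest 94, 118 and 42. The lists thus reach down to different signals, 6.75 in CHIR+SB, 7.68 in CHIR and 9.61 in RPMI, and the number of peaks moves with that limit. With the limit of 9.61 for every list, 140 upstream peaks remained in CHIR+SB, 124 in CHIR and 23 in RPMI.

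The median signal of the upstream peaks was 9.56 in CHIR+SB (quartiles 8.44 and 14.1), 11.5 in CHIR (9.22 and 15.7) and 12.8 in RPMI (9.61 and 17.0). Their median enrichment over IgG was 4.29 in CHIR+SB, 4.69 in CHIR and 3.59 in RPMI, without 10 CHIR peaks that had no IgG read. The median width was 266 bp in CHIR+SB, 344 bp in CHIR and 215 bp in RPMI.

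In CHIR+SB and CHIR, upstream peaks became sparser with distance. In CHIR+SB they numbered 16.0 per kb between 1 and 5 kb from the TSS, 10.6 between 5 and 10 kb, 6.50 between 10 and 20 kb and 3.30 between 20 and 50 kb. In CHIR the figures were 13.5, 6.00, 3.70 and 2.10 per kb, while the 23 RPMI peaks gave 1.00, 0.200, 0.700 and 0.367 per kb, with no steady course. The median distance was 12.4 kb in CHIR+SB, 11.4 kb in CHIR and 17.6 kb in RPMI. From the nearest to the farthest bin, the median signal was 10.7, 9.56, 9.56 and 9.56 in CHIR+SB, 11.5, 11.3, 11.5 and 11.9 in CHIR, and 15.7, 16.0, 10.9 and 9.61 in RPMI, where the bins held 4, 1, 7 and 11 peaks. The plot of signal against distance shows the single peaks. Another peak of the same list stood within 10 kb of 11.4% of upstream peaks in CHIR+SB, 11.4% in CHIR and 8.70% in RPMI. The other peaks gave 6.92%, 9.90% and 2.53%. In RPMI the upstream share came from the 2 peaks of DYNC1H1, which stand 248 bp apart. In CHIR the peaks within genes had a higher share than the upstream ones, 15.3%, and the other kinds had 5.94 to 10.3%. From the nearest to the farthest bin, 51.6%, 35.8%, 32.3% and 38.4% of CHIR+SB upstream peaks overlapped a CHIR peak, and 61.1%, 63.3%, 56.8% and 60.3% of CHIR upstream peaks overlapped a CHIR+SB peak. The overlap thus showed no steady course with distance.

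**Figure D2:**
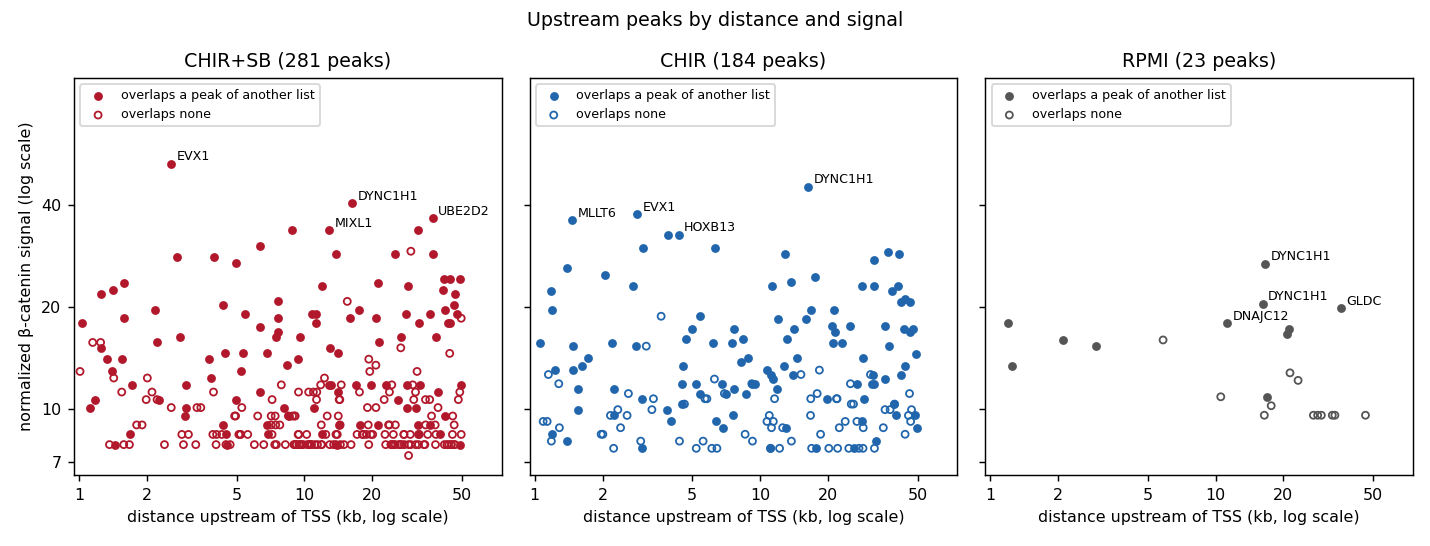
Normalized β-catenin signal (log scale) of every upstream peak against its distance from the TSS in kb (log scale), in CHIR+SB, CHIR and RPMI. Filled points overlap a peak of another list and open points do not. High points occur over the whole range of distance, as with EVX1 at 2.56 kb and UBE2D2 at 37.0 kb in CHIR+SB, and open points gather at low signal.

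Of the 281 upstream peaks in CHIR+SB, 111 overlapped a CHIR peak by at least 1 bp (39.5%, 33.7 to 45.5%), where the share over all CHIR+SB peaks was 36.6%. Of the 184 in CHIR, 111 met a peak of the CHIR+SB list (60.3%, 52.9 to 67.4%), where the share over all CHIR peaks was 63.3%. The upstream peaks of the CHIR+SB and CHIR lists thus met each other at shares near those of the lists as a whole.

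Few upstream peaks with CHIR were also peaks in RPMI. In CHIR+SB 11 of 281 overlapped an RPMI peak (3.91%, 1.97 to 6.90%), against 9.66% of the other CHIR+SB peaks and 8.77% of all. In CHIR 10 of 184 did (5.43%, 2.64 to 9.77%), against 19.4% of the other CHIR peaks and 17% of all. Peaks within genes, beyond 1 kb of the TSS, were similarly low, at 1.75% in CHIR+SB and 5.51% in CHIR. So were those far upstream, beyond 50 kb, at 1.99% and 3.96%. The low overlap was thus not particular to the upstream peaks. The promoter peaks, those within 1 kb of a TSS, stood at the other end. Of them, 45.0% in CHIR+SB and 47.5% in CHIR overlapped an RPMI peak. The RPMI list held 143 promoter peaks and 23 upstream peaks, which limits how many peaks of each kind could meet one. The shares in RPMI are thus bounded by the make-up of that list. In the other direction, 11 of the 23 RPMI upstream peaks met a CHIR+SB peak (47.8%, 26.8 to 69.4%), and 11 a CHIR peak, where the shares over all RPMI peaks were 61.5% and 69.6%. Of the 38 RPMI peaks within genes, 23.7% met a CHIR+SB peak and 34.2% a CHIR peak. Of the 18 far upstream, 27.8% and 22.2% did. These differences between kinds of peak rest on 1 library per condition and were not tested.

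The overlap grew with the height of the peak. In 4 equal groups of CHIR+SB upstream peaks from low to high signal, 5.63%, 22.9%, 41.4% and 88.6% overlapped a CHIR peak. In the same groups of CHIR upstream peaks, 28.3%, 34.8%, 80.4% and 97.8% overlapped a CHIR+SB peak. Overlap with RPMI, whose list held only 23 upstream peaks, was at most 6 of 70 peaks in CHIR+SB (8.57%) and 8 of 46 in CHIR (17.4%). Both stood in the highest group. The 170 CHIR+SB upstream peaks with no CHIR partner had a median of 15 reads, and the 111 with one a median of 27. In CHIR the 73 without a CHIR+SB partner had a median of 24 reads and the 111 with one 37. Only 13 of the 170 and 8 of the 73 lay within 10 kb of a peak of the other list.

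**Figure D3:**
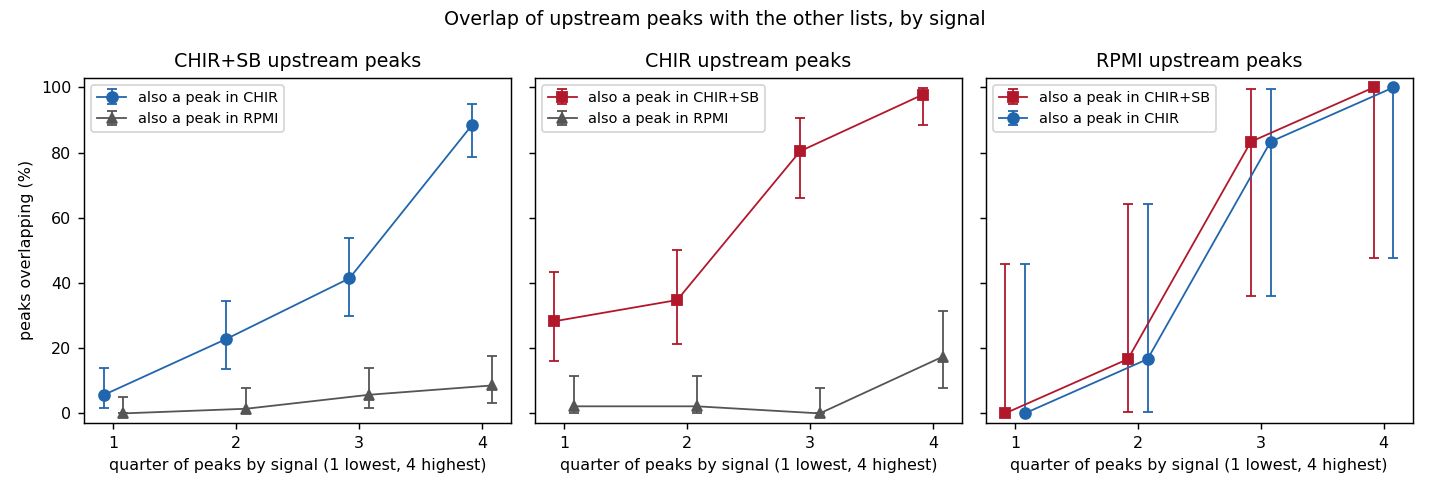
Percent of upstream peaks that overlap a peak of another list by 1 bp (vertical axis), for CHIR+SB, CHIR and RPMI upstream peaks. The peaks are split by signal into 4 equal groups from lowest to highest. Bars are exact 95% binomial intervals that treat peaks as independent draws. Overlap between CHIR+SB and CHIR reaches 88.6% and 97.8% in the highest groups, while overlap with RPMI does not exceed 17.4% in either.

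Among strong peaks, those in the upper quartile of their list by signal (chosen after seeing the data), the same contrast stood. They were set against the whole RPMI list, so its 23 upstream and 143 promoter peaks bound these shares too. In CHIR+SB, 65 of 74 strong upstream peaks were also peaks in CHIR (87.8%) and 7 were in RPMI (9.46%), against 89 of 126 strong promoter peaks in RPMI (70.6%). In CHIR, 41 of 42 strong upstream peaks were also peaks in CHIR+SB (97.6%) and 7 were in RPMI (16.7%, 6.97 to 31.4%), against 93 of 119 strong promoter peaks in RPMI (78.2%). Strong peaks within genes resembled the upstream ones in this respect, with 4 of 41 in CHIR also found in RPMI (9.76%).

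Merged by overlap, the upstream peaks formed 365 regions, in which any overlapping peak of a list was counted, upstream or not. Of these, 11 had a peak in all 3 lists, 99 in CHIR+SB and CHIR, 170 in CHIR+SB alone, 73 in CHIR alone and 12 in RPMI alone. By gene, 334 genes had an upstream peak: 10 in all 3 lists, 97 in CHIR+SB and CHIR, 2 in CHIR+SB and RPMI, 154 in CHIR+SB only, 61 in CHIR only and 10 in RPMI only. Of the 107 genes found in both CHIR+SB and CHIR, 5 shared no site: MSX2, PODXL, RMI2, SEPHS1 and DLGAP1-AS5. RMI2, a subunit of the complex that dissolves double Holliday junctions, had 52 reads at 29.7 kb in CHIR+SB and 25 reads at 16.8 kb in CHIR.

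The other highest upstream peaks with CHIR were mostly at genes outside the lists. In CHIR+SB, the ubiquitin-conjugating enzyme gene UBE2D2 had 65 reads at 37.0 kb, against 76 reads at 37.1 kb in CHIR. TUBB2A, a β-tubulin gene, had 60 reads in CHIR+SB and 37 in CHIR at 8.84 and 8.87 kb. LRRN2, for a leucine-rich repeat membrane protein, had 51 reads in CHIR+SB and 46 in CHIR at 25.1 kb. MLLT6, a fusion partner of the leukaemia gene KMT2A, had 42 reads in CHIR+SB and 94 in CHIR, at 1.58 and 1.47 kb. PTCH1, the Hedgehog receptor, had 50 reads in CHIR+SB and 85 in CHIR, at 3.96 and 3.91 kb. HAO2, a peroxisomal hydroxyacid oxidase gene, had 43 reads in CHIR+SB and 75 in CHIR, both 41.5 kb away. None of these 6 sites had a peak in RPMI.

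At 104 sites an upstream CHIR+SB peak and an upstream CHIR peak overlapped each other and no further peak, so that their signals can be set side by side. The median ratio of CHIR+SB to CHIR signal was 1.05 (quartiles 0.831 and 1.28), and 1.01 per kb of peak. It was 0.839 for the enrichment over IgG (98 sites), 0.714 with raw reads and 1.20 with the median of promoter pairs set to 1, so the side of 1 on which it lies depends on the scaling. CHIR+SB exceeded CHIR by over 1.5 times at 12 sites (11.5%), where the share over all 642 such pairs of the lists was 11.7%. CHIR+SB was below CHIR by the same factor at 8 sites (7.69%), where it was 8.88% over all pairs. At most upstream sites called in both lists, the signals with and without SB thus lay within 1.5-fold of each other. The median was 0.873 at promoter pairs and 1.13 at pairs far upstream, beyond 50 kb, a difference that was not tested. The 23 pairs at listed genes had a median of 1.02, and 13 of them were above 1.

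The counting interval of the ratio lay above 1 at 10 of the 104 sites, where it did so at 6.7% of all pairs, and below 1 at 3, where it did so at 4.21%. By counting error alone, about 5.2 of the 104 intervals would exclude 1, on both sides together. Any single site named below may thus be among these, and its difference is not established. Higher in CHIR+SB were TUBB2A, with a signal of 33.8 in CHIR+SB and 14.2 in CHIR (ratio 2.38, 1.55 to 3.68), and GRB14, an adaptor of the insulin receptor, with 23.1 in CHIR+SB and 10.8 in CHIR (2.15). YAF2, a subunit of a Polycomb PRC1 complex, followed (2.05), then the mitochondrial import gene TOMM34 (1.88) and JARID2 (1.87). The others were STAM2, of endosomal sorting (1.81), WLS (1.80), the bicarbonate transporter gene SLC4A7 (1.66), LRRN2 (1.62) and NHSL3 (1.56). Lower in CHIR+SB were LETM1, a gene of the mitochondrial inner membrane, with 11.8 in CHIR+SB and 30.0 in CHIR (0.394, 0.231 to 0.645), HOXB13 (0.620) and MLLT6 (0.655).

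Width moved with these ratios. These 13 sites stood on the same side of 1 in raw reads as in signal. The TUBB2A peak was 916 bp wide in CHIR+SB and 475 bp in CHIR, and the LETM1 peak 292 bp in CHIR+SB and 740 bp in CHIR. Per kb of peak, the ratio was 1.23 at TUBB2A and 1.00 at LETM1. It lay below 1 per kb at GRB14 (0.946), YAF2 (0.775), LRRN2 (0.651) and TOMM34 (0.473). HOXB13 (0.877) and MLLT6 (0.909) were lower in CHIR+SB per kb too. The part of width in these ratios was not tested further.

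**Figure D4:**
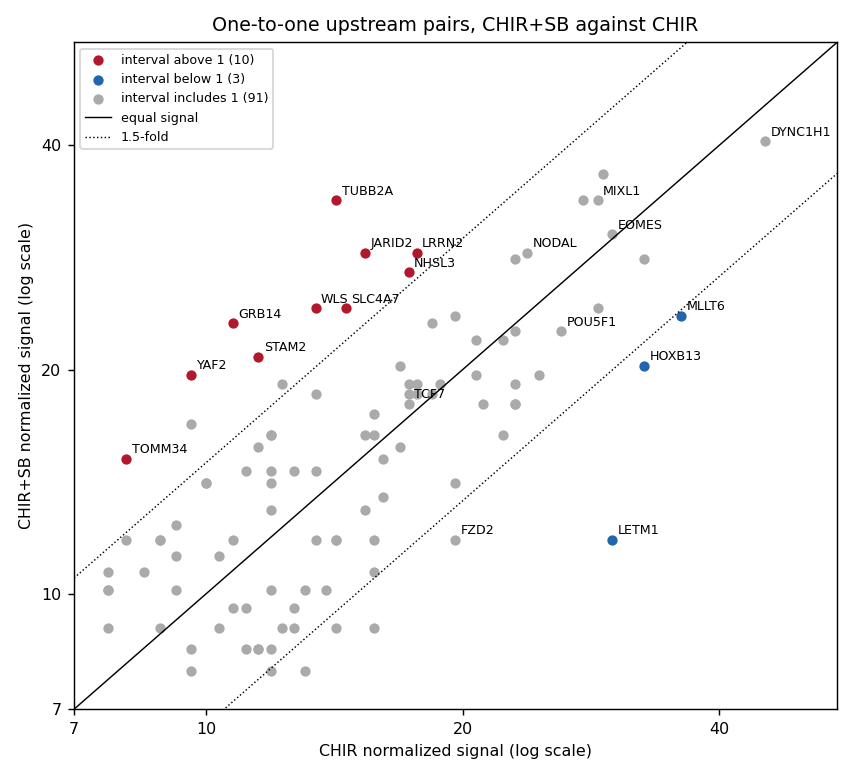
Normalized signal in CHIR+SB (vertical axis, log scale) against CHIR (horizontal axis, log scale) at the 104 sites where 1 upstream peak of each list overlaps 1 of the other. Coloured points have a counting interval of the ratio above 1 (10 sites) or below 1 (3 sites). The solid line marks equal signal and the dotted lines 1.5-fold. Most points lie between the dotted lines.

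The 11 upstream regions with a peak in all 3 lists were at other genes than the strongest CHIR sites, DYNC1H1 and LETM1 excepted. DYNC1H1, the heavy chain of cytoplasmic dynein, had the highest upstream peak in RPMI. The region lies 16.3 kb from the TSS (chromosome 14, 102414157 to 102414876 over the 3 lists) and held 72 reads in CHIR+SB, 118 in CHIR and 74 over 2 peaks in RPMI. Its signal was 40.5 in CHIR+SB, 45.3 in CHIR and 47.4 in RPMI. The ratio of CHIR+SB to CHIR was 0.894 (0.657 to 1.21), and none is given to RPMI, where the signal is a sum of 2 separately called peaks.

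At the next 5 regions every interval of the ratios between conditions included 1. GLDC, for the glycine decarboxylase, had a signal of 19.1 in CHIR+SB, 17.7 in CHIR and 19.9 in RPMI, 36.0 kb from its TSS. HPCAL4, a neuronal calcium sensor gene, had 18.6 in CHIR+SB, 17.7 in CHIR and 16.7 in RPMI. PHF12, a PHD finger gene whose CHIR and RPMI peaks there fell outside the distance rule, had 18.0 in CHIR+SB, 16.1 in CHIR and 16.0 in RPMI. The co-chaperone gene DNAJC12 had 18.0 in CHIR+SB, 23.0 in CHIR and 17.9 in RPMI, and the kinase scaffold gene KSR2 14.1, 19.6 and 13.5.

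In 3 of the 11 regions, besides FZD2, a counting interval excluded 1. LETM1 had a signal of 11.8 in CHIR+SB, 30.0 in CHIR and 15.4 in RPMI, so that CHIR was 1.95 times RPMI (1.22 to 3.22). YAF2 had 19.7 in CHIR+SB, 9.60 in CHIR and 16.0 in RPMI. ZCCHC14, a zinc-finger gene, had 10.7 in CHIR+SB, 8.45 in CHIR and 17.9 in RPMI, so that CHIR was 0.471 times RPMI (0.257 to 0.853). MIR153-2 had 9.00 in CHIR+SB, 15.7 in CHIR and 17.3 in RPMI.

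**Figure D5:**
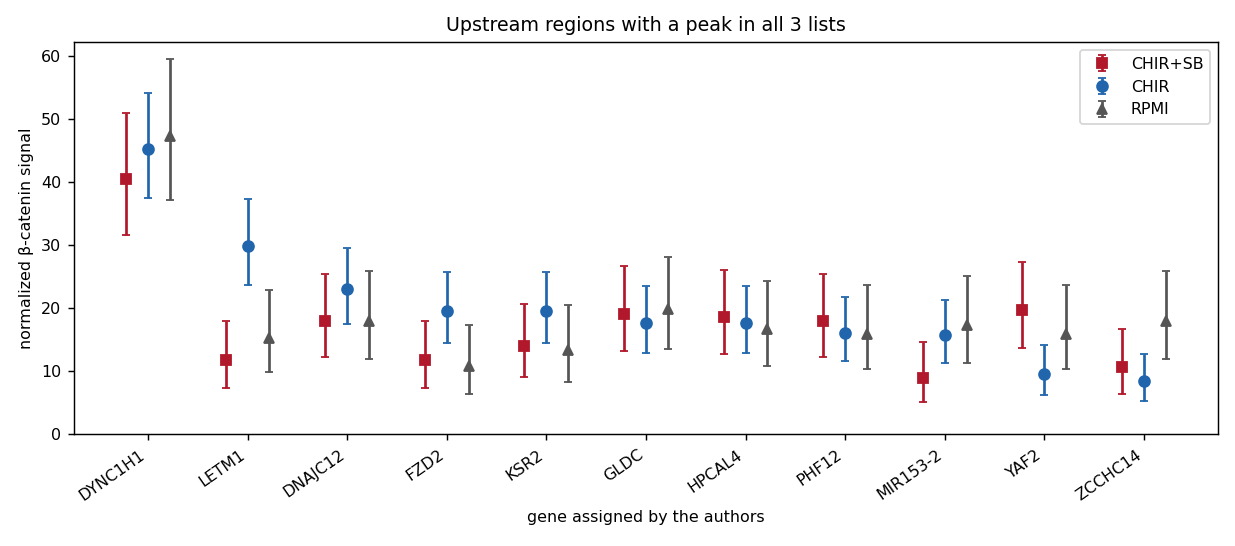
Normalized β-catenin signal (vertical axis, from 0) at the 11 upstream regions with a peak in all 3 lists, summed over the peaks of a list in the region. Squares are CHIR+SB, circles CHIR and triangles RPMI, and bars are exact 95% Poisson intervals for counting error. DYNC1H1 stands between 40.5 and 47.4 in all 3, and LETM1 shows its highest value in CHIR.

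At the 9 upstream sites where 1 CHIR peak met 1 RPMI peak, the median ratio of CHIR to RPMI signal was 1.06, against 1.21 at promoter pairs. CHIR exceeded RPMI by over 1.5 times at 2 sites, LETM1 and FZD2 (21.3% over all pairs), with intervals above 1 at both (16.1%). CHIR was below RPMI by that factor at 2, ZCCHC14 and YAF2 (1.72%), with an interval below 1 at ZCCHC14 (0.575%). Per kb of peak these 4 turned to the other side of 1, with 0.987 at LETM1, 0.711 at FZD2, 1.09 at ZCCHC14 and 1.16 at YAF2. CHIR+SB was a median of 1.00 times RPMI at 9 sites. It exceeded RPMI by over 1.5 times at 0 of them (17.8% over all pairs), and was below by that factor at 2, MIR153-2 and ZCCHC14 (6.58%). None of these 9 intervals excluded 1, where 8.55% lay above 1 and 2.63% below it over all pairs. The comparisons with CHIR+SB and with CHIR share the RPMI library.

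Upstream peaks found in a single list were lower than shared ones, with exceptions. In CHIR+SB the highest were at RMI2 (52 reads), ODF1, an outer dense fibre gene of sperm (37), MIR548I4 (33), the fatty aldehyde dehydrogenase gene ALDH3A2 and LINC00310 (28 each), and NAA11 (27). MIR5584 (26), the vesicle tethering gene USO1 (25), the Krüppel-like factor KLF5 (24) and a second site of HPCAL4 (23) completed the first 10. In CHIR the highest was at NTAQ1 (49 reads), followed by WNT3 (40), DPPA4 (34), and PEBP1, DLGAP1-AS5 and the gonadal regulator DMRT1 (33 each). MIR1275 (32), the second EOMES peak, PODXL and TMEM64 (31 each) came next. In RPMI the 12 peaks found alone had 15 to 25 reads, led by NBPF15 (25), DDAH1 (20), PRLR, the prolactin receptor (19), TMEM38B (17) and MICA (16). The others among the first 10 were NMNAT2, PROX1, N4BP1, YES1 and B3GNT2, at 15 reads each, the lowest count of the RPMI list.

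Few genes had 3 or more upstream peaks in a list, and RPMI had none. Besides FZD2 and FZD7, they were FOXB1 and MIR5584 in CHIR+SB and PIM1 and MIR5584 in CHIR. PIM1, a serine/threonine kinase gene, had 60 reads at 28.4 kb, 60 at 32.2 kb and 22 at 44.0 kb in CHIR, and CHIR+SB peaks of 34 and 32 reads at the first and second of these. FOXB1, a forkhead gene of the embryonic brain, had 26, 18 and 17 reads in CHIR+SB between 5.27 and 8.49 kb, and 31 reads in CHIR at the site of the highest.

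A promoter peak in the same list was assigned to 4 of the 263 genes with an upstream peak in CHIR+SB (1.52%), 5 of 168 in CHIR (2.98%) and 0 of 22 in RPMI. Over all protein-coding genes the share with a promoter peak was 1.15% in CHIR+SB, 1.26% in CHIR and 0.663% in RPMI. The shares before it also count genes of other types, such as MIR302B, so the sets are unlike, and the difference was not tested. The genes were AXIN2, CCDC169, DCLK1 and MIR302B in CHIR+SB, and AXIN2, EVX1, MIR302B, PIM1 and WLS in CHIR. MIR302B had promoter peaks of 38 reads in CHIR+SB and 33 in CHIR, higher than its upstream peaks. EVX1 had a CHIR promoter peak of 20 reads over its TSS.

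The promoters of the genes with an upstream peak, from 250 bases before to 50 after the start in RefSeq (GRCh38.p14), were searched on both strands for the TCF/LEF core CTTTGA and the OCT octamer ATGCAAAT. The motifs do not contain each other. CTTTGA stood in 13.9% of the promoters matched for CHIR+SB (26 of 187 genes), 14.3% for CHIR (17 of 119) and 16.7% for RPMI (3 of 18), against 15.5% of all 27305 genes of the table. ATGCAAAT stood in 3.74% for CHIR+SB, 2.52% for CHIR and 5.56% for RPMI (1 gene), against 2.19% of all. These windows are promoters and not the peaks themselves, whose hg19 sequence was not used here.

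The limits of the rule cut through a continuous range of distances. Just inside 1 kb stood the CHIR+SB peaks of CCDC169, at 1010 bp with 23 reads, and PHF12, at 1033 bp with 32. Just outside it stood ETV5 in CHIR+SB at 976 bp and DLGAP1-AS1 in RPMI at 991 bp, with 15 reads each. At 50 kb the peaks of LOC100130539, at 49.7 kb with 21 reads in CHIR+SB and 23 in CHIR, were inside. MAP9 at 50.2 kb with 15 reads and MTAP at 50.4 kb with 20, both in CHIR+SB, were outside. Of the 488 upstream peaks, 4 carry a gene name that RefSeq places on another chromosome, namely MIR548I4 and RNU6-78 in CHIR+SB, and MIR5694 and RNU6-78 in CHIR. The assignment of these 4 is uncertain.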

How the data were processed

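Per the labels' protocols, SA121 cells were fixed in formaldehyde, the DNA of 3 parallel ChIPs was pooled for each library and sequenced on a Genome Analyzer II. Alignment was with Bowtie, per the submitters' processing notes, which name hg19 and mm9 as builds. Not given in the sources used here are the Bowtie version, the peak caller with its thresholds, and the library totals. For each β-catenin library the authors deposited 1 peak list. The deposited counts are whole reads within a peak in the β-catenin and the IgG library. The deposited normalized signal, which has decimal commas read here as points, is the count times 1 factor per library, and the deposited distance is in bp from the peak's centre to the TSS of the assigned gene. The inverse of a factor served as relative depth. No expression was measured here, so the cell line was not checked against marker genes.

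From these values, upstream peaks were selected by distance, overlaps were counted at 1 bp or more, and regions were merged by overlap. Signal ratios were computed at pairs in which neither peak met another peak of the other list, with exact 95% conditional binomial intervals. Shares carry exact 95% Clopper-Pearson intervals, which treat the peaks of a list as independent draws. The intervals of signals and ratios treat reads as independent and cover their counting error only. No interval covers differences between libraries or the dependence between neighbouring peaks. A ratio was called past 1.5-fold. Enrichment is the quotient of both normalized signals, without peaks of 0 IgG reads. Gene names were matched to RefSeq (GRCh38.p14, names only) for 280 of 281 peaks in CHIR+SB, 183 of 184 in CHIR and 23 of 23 in RPMI, and coordinates are hg19 as deposited.

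Named are the 10 highest upstream peaks of each list, the 10 highest found in 1 list alone, listed genes with an upstream peak (except 1 that is not reported here), genes with 3 or more, the 5 highest and 5 lowest ratios whose interval excludes 1, regions in all 3 lists and the peaks next to the rule's limits. The other sites whose interval excludes 1, the displayed miRNAs and the genes without a shared site were named after their values were seen. The members and gene lists were chosen with earlier results of these data known. The scripts were tested on simulated peak lists (Python 3.11.15, pandas 2.3.3, numpy 2.4.6, scipy 1.17.1, matplotlib 3.10.9). The 3 IgG libraries were used only through their counts beside each peak. Alternatives tried were other distance limits, overlap rules, signal limits and scalings.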

Additional observations from a re-analysis of the deposited data

How the results depend on the processing

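Of 148 repeats of 35 results under other settings, 110 moved by less than counting error or, for counts, by less than 1.5 times, and 38 moved further. The medians of the ratios crossed 1 under some settings, as given below. A lower distance limit of 2 kb, an upper limit of 100 kb, a gap of 500 bp, an overlap of 50% of the shorter peak, overlap with upstream peaks only, and peaks of at least 3 times IgG changed none. With an upper limit of 20 kb, 182 upstream peaks remained in CHIR+SB, 121 in CHIR and 12 in RPMI. CHIR+SB then exceeded CHIR by 1.5 times at 7 of 66 sites, against 12 of 104 without this limit. It was below RPMI by that factor at 1 of 6 sites, against 2 of 9. With the signal limit of 9.61 in every list, CHIR+SB kept 140 upstream peaks, 55.7% overlapped CHIR and 7.14% RPMI, and 60 regions were found in CHIR+SB alone and 44 in CHIR alone. The median width was then 456 bp in CHIR+SB and 435 bp in CHIR, and 20 listed genes had an upstream peak in CHIR+SB. Of the 260 highest peaks of each list, 49 in CHIR+SB and 40 in CHIR were upstream. Of these, 67.3% in CHIR+SB overlapped CHIR and 12.2% RPMI, 85.0% in CHIR overlapped CHIR+SB and 17.5% RPMI, and 26.1% of RPMI upstream peaks overlapped CHIR+SB.

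The ratios depend on the scaling. With raw reads, CHIR+SB over CHIR had a median of 0.714, with 1 site above 1.5-fold and 44 below. With the median of promoter pairs set to 1, it was 1.20, with 26 above and 2 below. With IgG signal subtracted, the median was 0.949 and 17 were below. CHIR over RPMI had a median of 0.987 per kb of peak and 0.877 with promoter pairs set to 1, below 1 in both. CHIR exceeded RPMI by 1.5 times at 0 sites per kb of peak, at 6 with raw reads and at 1 with promoter pairs set to 1. It was below RPMI at 1 site per kb, at 1 with IgG subtracted and at 0 with raw reads. CHIR+SB over RPMI had a median of 1.14 with raw reads, 0.990 with IgG subtracted, 0.938 with promoter pairs set to 1 and 0.903 per kb, and was below by 1.5 times at 1 site. With 1 read added to each IgG count, the median enrichment was 3.91 in CHIR+SB, 3.91 in CHIR and 3.26 in RPMI. Beyond what these settings change by construction, the cause was not tested.

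No paired analysis was possible because each condition and antibody has 1 library, and replicate numbers were given in accession order. For the same reason no replicate was left out. Upstream peaks begin at 13 reads in CHIR+SB and at 20 in CHIR, a signal of 7.31 and 7.68. What sets these limits was not tested. The absence of a low peak from a list does not show the absence of binding. Genes are those the authors assigned by position, and no expression was measured here.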
